A study of Mus musculus with 12 samples.

Results

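The genes described here carry glucose through glycolysis and the pentose phosphate pathway, together with the 4 pyruvate dehydrogenase kinases (Pdk) and the E1 subunits of the enzyme complex that these kinases act on. The 34 genes were listed by name for their place in these pathways. No measured value was a criterion, but earlier results of these data were known when the list was made. Of 45101 probe sets on the array, 71 are paired with one of them in the platform annotation. Of these, 64 carry no other gene, 3 are the manufacturer's Gapdh control probe sets and 4 are shared with other genes. The filter on dim values kept 61 of the 64, and 30 of the 34 genes were tested among 13732 genes in all. Gapdh, the triose phosphate dehydrogenase, was not tested, because its 6 probe sets are controls or shared with pseudogenes. Gpi1, Eno1 and G6pdx have no probe set paired with them in the annotation used here and were not analysed here.

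Glycolysis begins when transporters of the Slc2a family let glucose in and hexokinases phosphorylate it, which holds it in the cell. Phosphofructokinase then commits the sugar to breakdown, and the lower steps yield pyruvate, which lactate dehydrogenase turns into lactate or the mitochondrial pyruvate dehydrogenase complex turns into acetyl-CoA. The Pdk kinases phosphorylate the E1 alpha subunit of that complex and so switch it off. The pentose phosphate pathway branches off after the hexokinase step: its oxidative arm makes NADPH, the reducing power behind glutathione recycling, and its non-oxidative arm exchanges pentoses with glycolytic sugars. In bone marrow, quiescent blood stem cells are known to rely on glycolysis with Pdk activity holding back pyruvate oxidation. Pdk4 is a known target of FoxO transcription factors in muscle and liver.

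The series holds 12 Affymetrix Mouse Genome 430 2.0 arrays of sorted mouse bone marrow cells, in 4 groups of 3. The groups were FoxO-deficient myeloid progenitors (arrays 10 to 12), wild-type myeloid progenitors (arrays 7 to 9), FoxO-deficient LSK cells (arrays 4 to 6) and wild-type LSK cells (arrays 1 to 3). LSK cells are the lineage-negative, Sca-1-positive, Kit-positive fraction that holds the blood stem cells. Every group came from pooled mice with loxP-flanked alleles of Foxo1, Foxo3 and Foxo4, and the deficient groups alone also carried the Mx-Cre transgene. Mx-Cre is driven by an interferon-inducible promoter and is not restricted to blood cells, so a difference between genotypes here includes any effect of the transgene. The labels used here give neither the induction of Mx-Cre nor the age or sex of the mice. Nor do they tell if a group's 3 arrays stem from different pools of mice, so the p-values rest on a spread between arrays that may be technical. The study asks how loss of the 3 FoxO genes affects genes of reactive oxygen species metabolism, and the pathways here supply NADPH and set how much pyruvate enters mitochondria.

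Foxo4 averaged 59.9 in FoxO-deficient and 329.8 in wild-type myeloid progenitors, and 85.8 in FoxO-deficient and 393 in wild-type LSK cells, and was called in both comparisons (limma, adjusted p = 0.000114 and 0.00162). Foxo1 and Foxo3 were not called in either. Of the LSK and stem cell markers, 10 of 12 were tested and 9 were called lower in wild-type myeloid progenitors than in wild-type LSK cells. Ly6a, the gene of Sca-1, is not among the genes tested, and Kit was not called in either genotype. Array 2, of wild-type LSK cells, differed from the rest in signs of RNA quality. Its deposited Gapdh control signal was 3165 near the 3′ end and 9.2 near the 5′ end of the transcript, and the ratio of these signals lay between 1.77 and 2.37 on the other 11 arrays. Its correlation with the other arrays of its group was 0.846 and 0.852, against 0.929 to 0.947 for all other pairs within groups. Counts of called genes are therefore given with and without this array. Because all groups share 1 estimate of the spread, leaving it out also changes the tests between groups that do not hold it.

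All levels are quantile-normalized intensities on a linear scale, the offset of 0.6 included, and a level is comparable between arrays for 1 probe set, not between genes. Each gene is represented by its brightest kept probe set. A log2 change is the difference of group means of log2(intensity + 0.6) with its standard error, from 3 arrays a group. Genes count as called where limma's p, adjusted after Benjamini-Hochberg over all 13732 genes, was under 0.05. In these bulk samples fewer cells of a type and less RNA per cell cannot be told apart.

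Myeloid progenitors of both genotypes had lower levels than LSK cells of 2 glucose transporters, of aldolase C and enolase 2, of lactate dehydrogenase B and of Pdk4, and higher levels of 3 pentose phosphate enzymes. In FoxO-deficient cells 12 of 30 genes were called between myeloid progenitors and LSK cells, which is 40% against 19.6% of all genes. Of these, 6 were higher, against 10.2% of all genes, and 6 lower, against 9.39%. In wild-type cells 11 of 30 were called, which is 36.7% against 21.4% of all genes. Of these, 4 were higher, against 9.95% of all genes, and 7 lower, against 11.5%. These 2 comparisons share the estimate of the spread but no array, and 9 genes (30%) were called in the same direction in both, against 12.3% of all genes. The 9 make up 75% of the calls in FoxO-deficient cells and 81.8% of those in wild-type cells, whereas over all genes the shared calls make up 62.5% and 57.2%. The median log2 change of the 30 genes was 0.20 in FoxO-deficient and 0.08 in wild-type cells, and that of all genes was 0.11 and 0.02. Scaling each array to a common median in place of quantile normalization moved the median of all genes to 0.31 and 0.19 and that of the 30 genes to 0.42 and 0.32, so each change stands relative to that shift. Over all genes quantile normalization called 1406 higher and 1289 lower in FoxO-deficient cells, and 1367 higher and 1575 lower in wild-type cells. Median scaling called 2400 higher and 1064 lower in FoxO-deficient cells, and 2177 higher and 1210 lower in wild-type cells.

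Glucose enters blood cells mainly through the transporters Slc2a1 (GLUT1) and Slc2a3 (GLUT3), and both fell in myeloid progenitors. Slc2a1 read 626, 667 and 598 in FoxO-deficient myeloid progenitors, against 1940.0, 1864 and 1988 in FoxO-deficient LSK cells (log2 change -1.62 ± 0.22, 3.07-fold lower, limma adjusted p = 0.000727). It read 909, 705 and 637 in wild-type myeloid progenitors, against 1663, 1265 and 2239.7 in wild-type LSK cells, where the second value is array 2 (log2 change -1.18 ± 0.22, 2.26-fold lower, limma adjusted p = 0.00434). Every myeloid progenitor array lay below every LSK array. The other 2 probe sets of Slc2a1 had the same sign in both genotypes. Slc2a3 read 710.2, 707 and 782 in FoxO-deficient myeloid progenitors and 1999, 2125 and 1834 in FoxO-deficient LSK cells, a log2 change of -1.44 ± 0.22 (limma adjusted p = 0.00146). In wild-type cells it read 822, 893 and 802 in myeloid progenitors and 1955, 1065 and 1782 in LSK cells, a log2 change of -0.89 ± 0.22 (limma adjusted p = 0.0179). Here too the groups did not overlap, and array 2 gave the lowest LSK value. The wild-type call of Slc2a3 was lost in 5 of 20 alternative settings, among them median scaling and the fit to the wild-type groups alone.

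Aldolase C and enolase 2 are isoforms best known from brain, where they carry the same steps as the ubiquitous aldolase A and enolase 1. Aldoc read 6.99, 5.89 and 2.56 in FoxO-deficient and 2.43, 0.956 and 2.56 in wild-type myeloid progenitors, and on none of these 6 arrays did it exceed the background limit set by bacterial control probe sets. Its level was 23.4, 29.6 and 19.1 in FoxO-deficient LSK cells and 20.4, 17.7 and 29.9 in wild-type LSK cells. It was thus at least 2.55-fold lower in FoxO-deficient myeloid progenitors (limma adjusted p = 0.00655) and at least 2.2-fold lower in wild-type myeloid progenitors (limma adjusted p = 0.000546). Eno2 read 10.3, 7.05 and 4.96 in FoxO-deficient myeloid progenitors, against 186, 139 and 260.3 in FoxO-deficient LSK cells (log2 change -4.73 ± 0.29, limma adjusted p = 4.77e-06). In wild-type cells Eno2 read 11.5, 10.0 and 9.57 in myeloid progenitors, against 207, 228 and 237 in LSK cells (log2 change -4.44 ± 0.29, limma adjusted p = 1.38e-05). The Eno2 signal was clear on all 6 LSK arrays, array 2 included, and in myeloid progenitors it exceeded background on 1 of 3 arrays in each genotype, so no fold is given. Without array 2 the wild-type change of Eno2 was -4.44 ± 0.33. Over 20 alternative settings the change of Eno2 lay between -4.98 and -2.51 in FoxO-deficient and between -4.52 and -2.61 in wild-type cells, and all of them called it in both.

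Lactate dehydrogenase is a tetramer of A subunits, which predominate in glycolytic tissues, and B subunits, which predominate in oxidative ones. Ldhb fell in myeloid progenitors of both genotypes. It read 70.2, 71.4 and 60.6 in FoxO-deficient myeloid progenitors, against 319.9, 369.7 and 381 in FoxO-deficient LSK cells (log2 change -2.40 ± 0.38, 5.29-fold lower, limma adjusted p = 0.00191). It read 121, 126 and 95.6 in wild-type myeloid progenitors, against 386, 1356 and 517 in wild-type LSK cells (log2 change -2.51 ± 0.38, limma adjusted p = 0.0015). The value of 1356 is array 2, and without it the wild-type change was -1.97 ± 0.17 (limma adjusted p = 9e-05). All 4 Ldhb probe sets were lower and past the threshold in both genotypes, where 14.6% of all 31779 probe sets passed in FoxO-deficient and 14.5% in wild-type cells. Ldha read 1019.5, 886 and 807 in FoxO-deficient and 971, 989.7 and 849.6 in wild-type myeloid progenitors, and 615, 619 and 636 in FoxO-deficient and 541, 1626 and 618 in wild-type LSK cells. Its 6 myeloid progenitor arrays lay above 5 of the 6 LSK arrays, and array 2, at 1626, stood above them all. Ldha was not called with all 12 arrays, and without array 2 it was called higher in myeloid progenitors, with a log2 change of 0.53 ± 0.11 in FoxO-deficient and 0.69 ± 0.13 in wild-type cells (limma adjusted p = 0.0069 and 0.00369).

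Of the 4 Pdk kinases, Pdk4 alone was called between the cell types. It read 1.75, 9.78 and 8.84 in FoxO-deficient myeloid progenitors, against 116, 119 and 129 in FoxO-deficient LSK cells (log2 change -4.51 ± 0.80, limma adjusted p = 0.00343). It read 12.7, 4.68 and 1.44 in wild-type myeloid progenitors, against 250.1, 155 and 244 in wild-type LSK cells (log2 change -5.59 ± 0.80, limma adjusted p = 0.00101). All 6 LSK values stood far above the 6 myeloid progenitor values, of which 1 of 3 in each genotype exceeded background, so no fold is given. Over 20 alternative settings, offsets included, the change of Pdk4 lay between -4.93 and -2.01 in FoxO-deficient and between -6.36 and -2.71 in wild-type cells, and all of them called it in both. Pdk1, the family member best known as a hypoxia-inducible gene, read 604, 478 and 340.0 in FoxO-deficient and 459.7, 450.3 and 455 in wild-type myeloid progenitors. In LSK cells Pdk1 read 509.6, 518 and 466 in the FoxO-deficient and 373, 184 and 489 in the wild-type group, the value of 184 being array 2. On its brightest probe set, given here, the Pdk1 groups overlapped in both genotypes. None of its dimmer probe sets passed the threshold. They changed by 0.37, -0.21 and -0.31 in FoxO-deficient and by 0.31, -0.28 and -0.14 in wild-type cells. On those that fell, wild-type myeloid progenitors read 125, 154 and 130, and 178, 199 and 206. Wild-type LSK cells read 246, 53.7 and 335, and 286, 107 and 315. Of these, 53.7 and 107 are array 2, and the other LSK values lay above the myeloid progenitors. Pdk3 read 117, 103 and 112 in FoxO-deficient and 117, 141 and 109 in wild-type myeloid progenitors. In LSK cells Pdk3 read 108, 104 and 117 in the FoxO-deficient and 120.1, 239.7 and 85.3 in the wild-type group, 239.7 being array 2. Pdk2 exceeded background on 6 of 12 arrays: its values were 8.74, 1.54 and 1.59 in FoxO-deficient and 8.99, 16.5 and 7.23 in wild-type myeloid progenitors, and 12.0, 5.68 and 11.7 in FoxO-deficient and 11.6, 13.5 and 0.983 in wild-type LSK cells. Near background no order of the Pdk2 groups can be read.

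**Figure D1:**
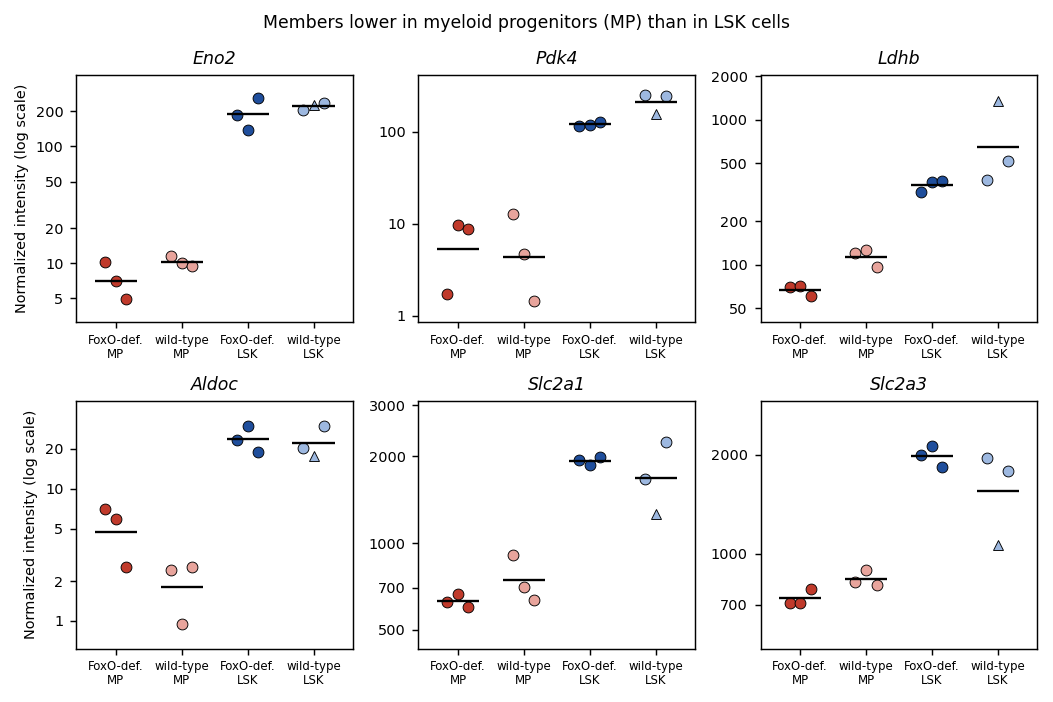
Normalized intensity on a log scale of the 6 genes called lower in myeloid progenitors (MP) than in LSK cells in both genotypes; points are single arrays, the triangle is wild-type LSK array 2 and bars are group means. Every myeloid progenitor array lies below every LSK array in all 6 panels, and Eno2, Pdk4 and Aldoc sit near or below background in myeloid progenitors.

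The pentose phosphate genes lay on the other side. All 5 that were tested had higher levels in myeloid progenitors in both genotypes, and all 5 were called in FoxO-deficient cells, against 10.2% of all genes called higher there. In wild-type cells 3 of the 5 were called, against 9.95% of all genes called higher. In the oxidative arm, Pgls, the 6-phosphogluconolactonase, read 88.4, 105 and 77.2 in FoxO-deficient myeloid progenitors and 39.7, 47.2 and 37.7 in FoxO-deficient LSK cells (log2 change 1.12 ± 0.33, limma adjusted p = 0.0418). In wild-type cells Pgls read 111, 94.5 and 89.6 in myeloid progenitors and 60.1, 20.5 and 38.4 in LSK cells (log2 change 1.44 ± 0.33, limma adjusted p = 0.0135), and without array 2, its lowest value, the change was 1.03 ± 0.22 (limma adjusted p = 0.00701). Pgls is seen through 1 probe set, its groups did not overlap in either genotype, and its FoxO-deficient call was lost in 12 of 20 alternative settings. Pgd, the NADPH-producing 6-phosphogluconate dehydrogenase, read 2234, 2533 and 2425 in FoxO-deficient myeloid progenitors, against 1201, 1291 and 1042 in FoxO-deficient LSK cells (log2 change 1.03 ± 0.18, 2.04-fold higher, limma adjusted p = 0.0031). In wild-type cells Pgd read 2590.5, 2359 and 1959 in myeloid progenitors and 1688, 2273 and 1729 in LSK cells, a log2 change of 0.28 ± 0.18 that was not called (limma adjusted p = 0.302). The wild-type groups overlapped through array 2, at 2273. Of the other 3 Pgd probe sets, all rose past the threshold in FoxO-deficient cells and 1 did in wild-type cells (log2 change 1.39).

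In the non-oxidative arm, Taldo1 (transaldolase) and Rpia (ribose-5-phosphate isomerase) rose in both genotypes. Taldo1 read 408, 443 and 392 in FoxO-deficient myeloid progenitors, against 207, 238 and 208 in FoxO-deficient LSK cells (log2 change 0.93 ± 0.16, 1.90-fold higher, limma adjusted p = 0.00255). In wild-type cells Taldo1 read 445, 497 and 445 in myeloid progenitors, against 194, 254 and 249 in LSK cells (log2 change 1.00 ± 0.16, limma adjusted p = 0.00169). Both differences were several times their standard error, and array 2, at 254, gave the highest LSK value. Rpia read 1856, 1737 and 1830.1 in FoxO-deficient myeloid progenitors and 1237, 1109 and 1229 in FoxO-deficient LSK cells (log2 change 0.60 ± 0.14, limma adjusted p = 0.0119). In wild-type cells Rpia read 1781, 1750.0 and 2057 in myeloid progenitors and 1095, 1023 and 1132 in LSK cells (log2 change 0.78 ± 0.14, limma adjusted p = 0.00307). All 6 Rpia values of myeloid progenitors lay above all 6 of LSK cells, with 1.52-fold and 1.72-fold differences. Tkt (transketolase) read 1999, 2143 and 2257 in FoxO-deficient myeloid progenitors, against 1519, 1610.3 and 1192 in FoxO-deficient LSK cells (log2 change 0.58 ± 0.17, limma adjusted p = 0.0382), a call lost in 9 of 20 alternative settings. In wild-type cells Tkt read 2258, 2010.4 and 1769 in myeloid progenitors and 1643, 1401 and 1500.2 in LSK cells (log2 change 0.41 ± 0.17, limma adjusted p = 0.119). The wild-type Tkt groups did not overlap either, although the test did not pass. A second, dimmer Tkt probe set rose past the threshold in both genotypes, and the dimmest one had the opposite sign in FoxO-deficient cells.

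**Figure D2:**
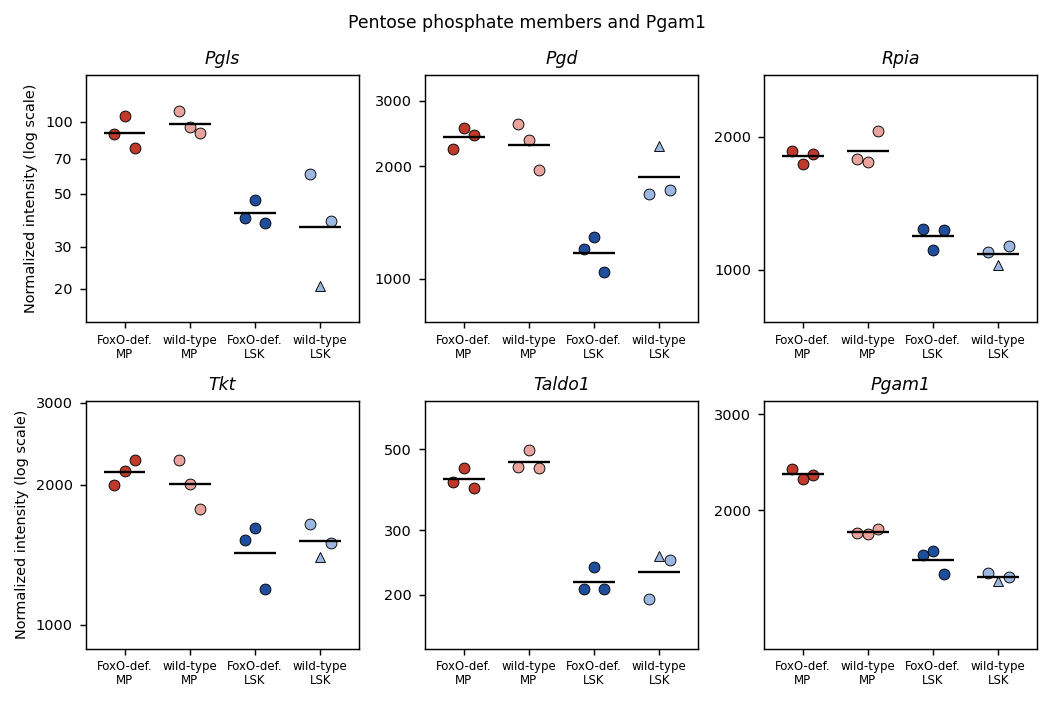
Normalized intensity on a log scale of the 5 pentose phosphate genes tested and of Pgam1; points are single arrays, the triangle is wild-type LSK array 2 and bars are group means. Myeloid progenitor arrays (MP) lie above LSK arrays of the same genotype in every panel except that of Pgd in wild-type cells.

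Among the remaining steps, 3 genes were called in 1 genotype. Pgam1 (phosphoglycerate mutase) read 2383, 2278 and 2316 in FoxO-deficient myeloid progenitors, against 1653, 1683 and 1529 in FoxO-deficient LSK cells (log2 change 0.52 ± 0.12, limma adjusted p = 0.0146). In wild-type cells Pgam1 read 1814, 1805 and 1845 in myeloid progenitors and 1532, 1483 and 1507 in LSK cells (log2 change 0.27 ± 0.12, limma adjusted p = 0.148). The wild-type Pgam1 groups did not overlap, and without array 2 that comparison passed as well (limma adjusted p = 0.0436). Pkm (pyruvate kinase of most tissues) read 419, 349 and 358 in wild-type myeloid progenitors, against 461, 539 and 600.3 in wild-type LSK cells (log2 change -0.50 ± 0.16, limma adjusted p = 0.0476), a call lost in 14 of 20 alternative settings. In FoxO-deficient cells Pkm read 622, 511 and 529.7 in myeloid progenitors and 539, 544 and 526 in LSK cells, with overlapping groups (log2 change 0.04 ± 0.16). Pdha1, the E1 alpha subunit that the Pdk kinases phosphorylate, read 883, 838 and 1008 in wild-type myeloid progenitors, against 616, 604 and 712 in wild-type LSK cells (log2 change 0.50 ± 0.14, limma adjusted p = 0.0341), a call lost in 12 of 20 settings. In FoxO-deficient cells Pdha1 read 1058, 932 and 950.3 in myeloid progenitors and 893, 826 and 861 in LSK cells (log2 change 0.19 ± 0.14). A second, dimmer Pdha1 probe set was past the threshold, higher in myeloid progenitors, in both genotypes (log2 change 0.98 in FoxO-deficient and 1.55 in wild-type cells). Whether these 3 genes changed more in one genotype than in the other was tested by the difference of the changes, which was not called for any of them.

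The brightest probe sets of the hexokinases, phosphofructokinases and the aldolase A and triose steps were not called in either genotype with all 12 arrays. A dimmer probe set of Hk3, the hexokinase of myeloid cells, was past the threshold, higher in myeloid progenitors, with log2 changes of 1.50 in FoxO-deficient and 1.04 in wild-type cells (limma adjusted p over all probe sets = 0.00625 and 0.0366). So was 1 of the 5 Aldoa probe sets, with log2 changes of 0.80 in FoxO-deficient and 0.66 in wild-type cells (limma adjusted p over all probe sets = 0.0123 and 0.0313). Hk2, the inducible hexokinase bound to mitochondria, read 579, 563 and 679 in FoxO-deficient myeloid progenitors and 1070.5, 1130.1 and 1024 in FoxO-deficient LSK cells (log2 change -0.83 ± 0.46, limma adjusted p = 0.25). In wild-type cells Hk2 read 419.8, 425 and 376 in myeloid progenitors and 809.6, 186 and 724 in LSK cells (log2 change -0.23 ± 0.46), where 186 is array 2, the only LSK value below the myeloid progenitors. Without that array Hk2 was called lower in myeloid progenitors in both genotypes, with log2 changes of -0.82 ± 0.11 and -0.90 ± 0.12 (limma adjusted p = 0.000481 in FoxO-deficient and 0.000628 in wild-type cells). Without array 2, 18 of 30 genes were called in FoxO-deficient cells, against 38.2% of all genes, and 18 of 30 in wild-type cells, against 35% of all genes. In FoxO-deficient cells 11 were higher, against 22.1% of all genes, and 7 lower, against 16.1%. In wild-type cells 10 were higher, against 18.5% of all genes, and 8 lower, against 16.6%. The 12 and the 11 genes called with all arrays were all among them. By their brightest probe sets, Hk2, lower, and Hk3, Aldoa and Ldha, higher, were called in both genotypes without array 2 and in neither with it. Hk1, the hexokinase of most tissues, turned its sign in wild-type cells. Its log2 change was 0.75 ± 0.14 without array 2 (limma adjusted p = 0.00365), and -0.13 ± 0.58 with 12 arrays (limma adjusted p = 0.905). The brightest Aldoa probe set read 2380 on array 2, against 683 and 752 on the other wild-type LSK arrays. The glyceraldehyde phosphate step was followed through the 3 Gapdh control probe sets, which were not tested. The one at the 3′ end read 3583, 3583 and 3329 in FoxO-deficient and 3287, 3329 and 3190.3 in wild-type myeloid progenitors, and 3023, 3124 and 2832 in FoxO-deficient and 2954, 3397 and 3279.5 in wild-type LSK cells. These values lay between 2832 and 3583 on all 12 arrays. The one in the middle of the transcript read 1949.9 to 2019.95 in FoxO-deficient and 1570.3 to 1693 in wild-type myeloid progenitors, and 1428 to 1552 in FoxO-deficient and 1548 and 1536 in wild-type LSK cells, with 181 on array 2. On that probe set all 6 myeloid progenitor arrays lay above all LSK arrays, and FoxO-deficient above wild-type myeloid progenitors. The one at the 5′ end read 1663 to 1819 in FoxO-deficient and 1466 to 1483 in wild-type myeloid progenitors, and 1274 to 1359 in FoxO-deficient and 1577 and 1386 in wild-type LSK cells, with 13.7 on array 2. There the wild-type myeloid progenitors overlapped the wild-type LSK arrays. The brightest probe set that Gapdh shares with other genes was fitted among the single probe sets and did not pass. Its log2 change was 0.26 ± 0.15 in FoxO-deficient and 0.13 ± 0.15 in wild-type cells (limma adjusted p over all probe sets = 0.313 and 0.641).

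**Figure D3:**
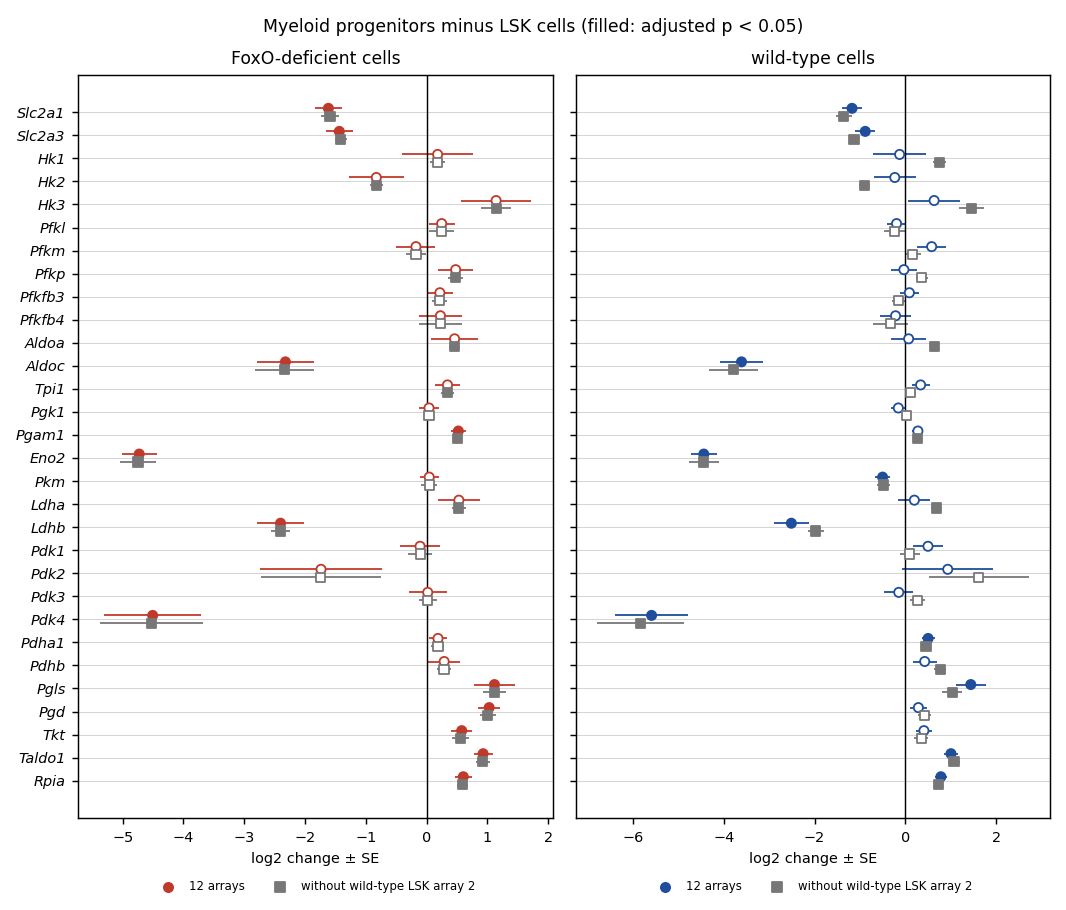
Log2 change ± SE of myeloid progenitors minus LSK cells for the 30 genes tested, in FoxO-deficient cells (left) and wild-type cells (right); filled symbols passed an adjusted p of 0.05, circles are the fit to 12 arrays and grey squares the fit without wild-type LSK array 2. Eno2, Pdk4, Aldoc, Ldhb, Slc2a1 and Slc2a3 lie left of 0 and the pentose phosphate genes at the bottom lie right of 0 on both sides.

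Markers of cell lineages moved with the same comparison. The summed level of 7 erythroid markers was 6998 to 7450.0 in FoxO-deficient myeloid progenitors and 3380 to 3504 in FoxO-deficient LSK cells, and 6 of 7 were called higher. In wild-type cells the erythroid sum was 9229 to 9540 in myeloid progenitors and 2213 to 3990.2 in LSK cells, again with 6 of 7 called higher. The value of 2213 is array 2. Most of the LSK sum was Car2, which was not called and averaged 3236 in FoxO-deficient and 2692 in wild-type LSK cells. Car2 averaged 3723 in FoxO-deficient and 4040 in wild-type myeloid progenitors. The median log2 change of the 7 erythroid markers was 3.15 in FoxO-deficient and 2.79 in wild-type cells. Of 9 granulocyte-monocyte progenitor markers 8 were called higher in each genotype, and their sum was 19543 to 20275 in FoxO-deficient myeloid progenitors against 4807 to 5219 in FoxO-deficient LSK cells. In wild-type cells that sum was 15621 to 16066 in myeloid progenitors against 3946 to 5331 in LSK cells, where 5331 is array 2. Late neutrophil genes ran the other way, with 5 of 8 called lower in FoxO-deficient and 6 of 8 in wild-type myeloid progenitors. Of 9 cycling genes 3 were called higher in each genotype. Of 6 basophil and mast cell markers 4 were called higher in FoxO-deficient and 6 in wild-type cells. Immediate-early genes, which respond to handling as well as to signals, summed to 683 to 776 in FoxO-deficient myeloid progenitors against 19308 to 19971 in FoxO-deficient LSK cells, with 10 of 10 called lower, and to 11675 to 12580.2 in wild-type myeloid progenitors against 17785 to 18482 in wild-type LSK cells. The part of these markers in the changes above was not tested.

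Sequences around the transcription start are shown for the genes called the same way in both genotypes, since these are the members that moved together. They are the RefSeq sequences on GRCm38.p6, from 250 bases before to 50 bases after the annotated start, 5′ to 3′ on the gene's strand. Slc2a3 is named only. Capitals mark matches, on either strand, to GTAAACA (a FoxO site), ACGTG or GCGTG (cores of the hypoxia response element), or CACGTG (an E-box, which contains ACGTG on both strands). The windows lie at chr6:124769624-124769923 (minus) for Eno2, chr6:5496229-5496528 (minus) for Pdk4, chr6:142507908-142508207 (minus) for Ldhb, chr4:119108495-119108794 (plus) for Slc2a1 and chr11:78323948-78324247 (plus) for the second annotated start of Aldoc. That of its first start, chr11:78322823-78323122 (plus), is shown as well. They lie at chr8:71591934-71592233 (plus) for Pgls, chr7:141391910-141392209 (plus) for Taldo1 and chr6:70792126-70792425 (minus) for Rpia.
Eno2: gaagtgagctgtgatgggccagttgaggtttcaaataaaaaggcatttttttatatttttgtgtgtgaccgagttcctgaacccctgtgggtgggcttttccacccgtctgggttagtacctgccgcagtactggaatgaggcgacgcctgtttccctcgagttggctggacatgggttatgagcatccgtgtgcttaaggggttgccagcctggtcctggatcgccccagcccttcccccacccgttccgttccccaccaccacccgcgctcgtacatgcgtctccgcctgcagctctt
Pdk4: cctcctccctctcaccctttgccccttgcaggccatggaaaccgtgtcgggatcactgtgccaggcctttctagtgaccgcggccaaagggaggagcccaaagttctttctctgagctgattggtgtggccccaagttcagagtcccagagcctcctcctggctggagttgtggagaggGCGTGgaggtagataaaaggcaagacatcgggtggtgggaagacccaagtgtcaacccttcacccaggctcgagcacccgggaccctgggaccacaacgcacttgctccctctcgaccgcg
Ldhb: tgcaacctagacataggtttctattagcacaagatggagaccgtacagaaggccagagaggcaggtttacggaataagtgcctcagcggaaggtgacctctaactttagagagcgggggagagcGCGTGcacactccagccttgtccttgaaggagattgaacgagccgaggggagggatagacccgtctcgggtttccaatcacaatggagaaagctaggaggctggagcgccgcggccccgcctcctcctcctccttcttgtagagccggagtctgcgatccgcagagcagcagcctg
Slc2a1: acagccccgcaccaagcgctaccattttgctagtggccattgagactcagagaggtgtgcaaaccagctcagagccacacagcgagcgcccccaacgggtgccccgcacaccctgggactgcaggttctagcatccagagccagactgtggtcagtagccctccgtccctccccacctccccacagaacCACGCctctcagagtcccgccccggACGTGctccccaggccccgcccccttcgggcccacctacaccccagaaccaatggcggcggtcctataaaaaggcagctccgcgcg
Aldoc, second start: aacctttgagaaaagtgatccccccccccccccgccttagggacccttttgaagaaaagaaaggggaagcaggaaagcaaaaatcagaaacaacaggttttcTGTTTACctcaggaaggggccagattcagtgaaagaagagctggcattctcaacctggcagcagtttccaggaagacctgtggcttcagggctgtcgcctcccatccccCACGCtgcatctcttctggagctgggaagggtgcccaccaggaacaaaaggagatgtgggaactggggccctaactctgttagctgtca
Aldoc, first start: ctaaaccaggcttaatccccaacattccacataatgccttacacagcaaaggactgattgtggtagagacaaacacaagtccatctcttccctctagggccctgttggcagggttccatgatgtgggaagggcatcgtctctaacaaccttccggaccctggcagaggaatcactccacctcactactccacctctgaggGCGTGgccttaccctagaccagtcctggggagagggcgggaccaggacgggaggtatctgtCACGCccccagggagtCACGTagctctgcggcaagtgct
Pgls: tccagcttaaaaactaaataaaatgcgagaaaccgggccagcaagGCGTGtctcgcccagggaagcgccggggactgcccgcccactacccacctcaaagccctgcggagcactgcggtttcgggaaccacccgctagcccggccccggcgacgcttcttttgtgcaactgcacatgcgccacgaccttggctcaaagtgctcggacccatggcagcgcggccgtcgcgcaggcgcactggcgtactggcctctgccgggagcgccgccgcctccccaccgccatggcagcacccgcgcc
Taldo1: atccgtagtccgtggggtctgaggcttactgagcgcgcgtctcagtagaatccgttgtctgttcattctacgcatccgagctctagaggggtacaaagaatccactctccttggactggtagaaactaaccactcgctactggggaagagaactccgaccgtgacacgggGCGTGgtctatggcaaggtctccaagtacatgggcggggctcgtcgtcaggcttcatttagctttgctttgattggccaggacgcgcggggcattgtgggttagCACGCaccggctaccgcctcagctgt
Rpia: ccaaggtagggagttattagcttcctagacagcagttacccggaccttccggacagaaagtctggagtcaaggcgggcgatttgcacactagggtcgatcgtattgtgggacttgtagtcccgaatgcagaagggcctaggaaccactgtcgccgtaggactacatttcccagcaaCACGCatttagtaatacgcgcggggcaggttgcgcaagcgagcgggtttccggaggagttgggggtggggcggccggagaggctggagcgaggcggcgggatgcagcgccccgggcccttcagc

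The window of the second Aldoc start was the only one of 48 promoter windows of the listed genes to hold GTAAACA, 148 bases before the start, and 3.65% of 32851 promoter windows hold it. The windows of the first Aldoc start and of Pdk4 have no match to those letters. GCGTG stands in the windows of Pdk4, Ldhb, Slc2a1, Aldoc, Pgls, Taldo1 and Rpia, and in 29 of the 48 windows of the listed genes, against 32.4% of all windows. ACGTG stands in the Slc2a1 window 36 bases before the start and in that of the first Aldoc start 27 bases after it, and in 20 of the 48 windows against 19.6% of all. CACGTG stands in none of those printed, and in 4 of the 48 windows (Ldha, Pdk2, Pfkfb3 and Pfkm), against 7.15% of all. Eno2, one of the 2 genes with the largest drops among the 30, holds none of the 4 motifs. Some windows of 1 gene overlap. Genes lower and genes higher in myeloid progenitors both hold GCGTG. A match describes the sequence only.

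FoxO deficiency left no glycolytic or pentose phosphate gene past the threshold in myeloid progenitors when all 12 arrays were used (limma, 0 of 30 called, against 1.84% of all genes). At an unadjusted p under 0.05 there were 5 of 30, which were Aldoc, Pfkfb4, Pfkfb3, Pgam1 and Pkm, all higher, against 12.9% of all genes in either direction. Of these, Aldoc was not above background in either group, and Pfkfb4 was above it on 1 of the 3 wild-type arrays. The median log2 change of the 30 genes was -0.01, and that of all genes 0.04. Without wild-type LSK array 2, which is in neither group, 7 of 30 genes (23.3%) were called, against 8.9% of all genes. Of these, 5 were higher in FoxO-deficient myeloid progenitors (5.36% of all genes were), namely Hk2, Pfkp, Pfkfb3, Pgam1 and Pkm. The other 2, Pfkm and Ldhb, were lower (3.54% of all genes were). None of the 7 passed in the fit to the myeloid progenitor arrays alone, where their adjusted p lay between 0.0592 and 0.0812 (limma). The 7 were singled out after their values were seen and are described by the values of each array.

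Hk2 read 579, 563 and 679 in FoxO-deficient myeloid progenitors, against 419.8, 425 and 376 in wild-type ones (log2 change 0.57 ± 0.46, limma adjusted p = 0.719 with 12 arrays and 0.0145 without array 2). Every FoxO-deficient value of Hk2 lay above every wild-type value. Hk1 went the opposite way, at 132, 116 and 137 in FoxO-deficient and 169, 195 and 170 in wild-type myeloid progenitors (log2 change -0.47 ± 0.58, limma adjusted p = 0.863 and 0.0521 without array 2). It was not called, its groups did not overlap, and both of its probe sets were lower. Pfkp, the platelet-type subunit of phosphofructokinase, read 217, 205 and 199 in FoxO-deficient and 158, 154 and 137 in wild-type myeloid progenitors (log2 change 0.47 ± 0.29, limma adjusted p = 0.589 and 0.0468 without array 2). Pfkm, the muscle-type subunit of the same enzyme, went the opposite way, at 81.4, 67.3 and 81.4 in FoxO-deficient and 145, 111 and 121 in wild-type myeloid progenitors (log2 change -0.71 ± 0.32, limma adjusted p = 0.393 and 0.0333 without array 2). The brightest probe set of the liver-type subunit, Pfkl, was not called with or without array 2. A dimmer Pfkl probe set read 15.7, 10.9 and 10.3 in FoxO-deficient and 28.5, 26.8 and 24.7 in wild-type myeloid progenitors (log2 change -1.14 ± 0.25, limma adjusted p over all probe sets = 0.0641). Another dim Pfkl probe set changed by -0.06 ± 0.46. For Pfkp, a dim second probe set had the opposite sign to the brightest. Pfkfb3, whose product makes the fructose 2,6-bisphosphate that activates phosphofructokinase, read 232, 189 and 205 in FoxO-deficient and 123, 148 and 138 in wild-type myeloid progenitors (log2 change 0.62 ± 0.21, limma adjusted p = 0.24 and 0.0198 without array 2). Its groups did not overlap, and a second probe set near background had the opposite sign.

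Lower in the pathway, Pgam1 was 2383, 2278 and 2316 in FoxO-deficient and 1814, 1805 and 1845 in wild-type myeloid progenitors (log2 change 0.35 ± 0.12, limma adjusted p = 0.243 and 0.0261 without array 2). The spread within each Pgam1 group was small beside the gap. Pkm was 622, 511 and 529.7 in FoxO-deficient and 419, 349 and 358 in wild-type myeloid progenitors (log2 change 0.56 ± 0.16, limma adjusted p = 0.131 and 0.0351 without array 2). Ldhb was 70.2, 71.4 and 60.6 in FoxO-deficient and 121, 126 and 95.6 in wild-type myeloid progenitors (log2 change -0.75 ± 0.38, limma adjusted p = 0.461 and 0.0226 without array 2). All 4 Ldhb probe sets were lower in the FoxO-deficient group. In all, the groups did not overlap for 11 of 30 genes, against 30.8% of all genes, so the share among these genes lay near that of the array as a whole. Of the 11, 6 were higher, against 18.2% of all genes, and 5 lower, against 12.6%. The pentose phosphate genes showed log2 changes between -0.16 and 0.09, and none of the 4 Pdk genes was called in myeloid progenitors with or without array 2.

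**Figure D4:**
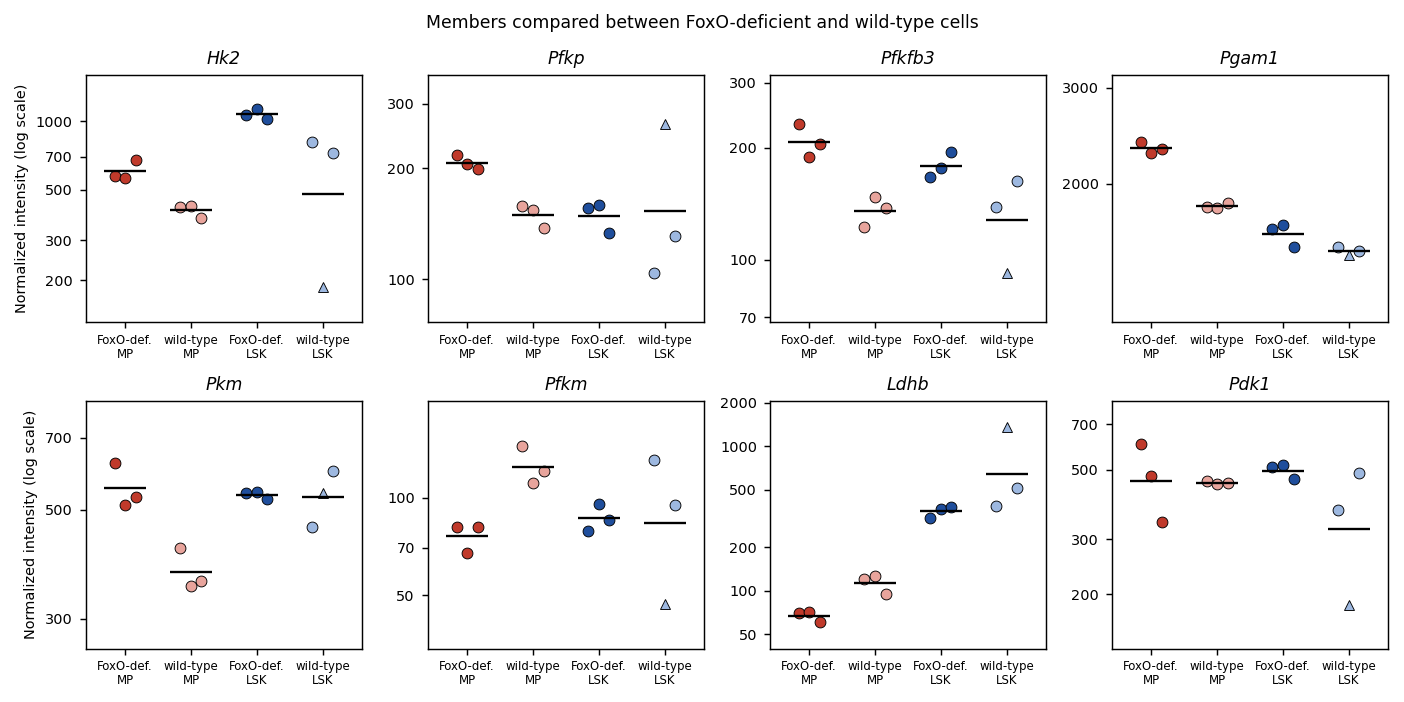
Normalized intensity on a log scale of the 7 genes called between FoxO-deficient and wild-type myeloid progenitors (MP) without array 2, and of Pdk1; points are single arrays, the triangle is wild-type LSK array 2 and bars are group means. In myeloid progenitors Hk2, Pfkp, Pfkfb3, Pgam1 and Pkm lie higher and Pfkm and Ldhb lower in the FoxO-deficient group, and array 2 lies far from the other wild-type LSK arrays for Hk2, Pfkp and Ldhb.

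Other groups of genes differed between the same arrays. The immediate-early genes summed to 683 to 776 in FoxO-deficient and to 11675 to 12580.2 in wild-type myeloid progenitors, and 9 of 10 were called lower. The erythroid sum was 6998 to 7450.0 in FoxO-deficient and 9229 to 9540 in wild-type myeloid progenitors, with 1 of 7 called, lower. The granulocyte-monocyte progenitor sum was 19543 to 20275 in FoxO-deficient and 15621 to 16066 in wild-type myeloid progenitors, with 1 of 9 called, higher. The late neutrophil sum was 6278 to 6587 in FoxO-deficient and 4459.7 to 4602 in wild-type myeloid progenitors, with Camp alone of 8 called, higher. The basophil and mast cell sum was 998 to 1027 in FoxO-deficient and 609 to 689 in wild-type myeloid progenitors. Of the stem cell markers Tek was called lower. The part of these shifts in the values above was not tested.

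In LSK cells no gene of the 30 was called between genotypes, with all 12 arrays (limma, against 0.269% of all genes) or without array 2 (limma, against 0.952% of all genes). At an unadjusted p under 0.05 with 12 arrays there were 5 of 30, Hk2, Pfkfb3 and Pdha1 higher and Ldhb and Pgd lower, against 11.5% of all genes. Without array 2 there were also 5, namely Hk2, Pfkp, Pdha1 and Pdhb higher and Pgd lower, against 15.5% of all genes, so this share lay near the background. A second, dimmer Pdhb probe set went the opposite way, at 21.6, 13.1 and 17.6 in FoxO-deficient and 35.4, 41.3 and 38.0 in wild-type LSK cells (log2 change -1.16 ± 0.32 with 12 arrays, limma adjusted p over all probe sets = 0.275). The median log2 change of the 30 genes was 0.01, and that of all genes -0.04. The groups did not overlap for 6 of 30 genes, the 5 of the 12-array fit and Pdk4, against 16.8% of all genes. Of the 6, 3 were higher, against 7.77% of all genes, and 3 lower, against 9.06%. Hk2 read 1070.5, 1130.1 and 1024 in FoxO-deficient LSK cells, against 809.6, 186 and 724 in wild-type LSK cells (log2 change 1.17 ± 0.46, limma adjusted p = 0.388), and without array 2, the value of 186, the change was 0.49 ± 0.12 (limma adjusted p = 0.0975). All FoxO-deficient values of Hk2 lay above all wild-type values, with or without array 2.

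Pdk4, the known FoxO target, read 116, 119 and 129 in FoxO-deficient LSK cells, against 250.1, 155 and 244 in wild-type LSK cells. Every FoxO-deficient value lay below every wild-type value, and array 2 was the lowest of the wild-type values. The log2 change was -0.81 ± 0.80 with 12 arrays (limma adjusted p = 0.682) and -1.03 ± 0.95 without array 2 (limma adjusted p = 0.675). Its standard error comes from the spread in all 4 groups, and Pdk4 varied most in the myeloid progenitors, where it was near background. In a fit to the LSK arrays alone, the change was -0.81 ± 0.27 with an unadjusted p of 0.0238 and an adjusted p of 0.72 (limma). The same fit without array 2 was added after the data were seen and holds fewer wild-type than FoxO-deficient arrays. It gave -1.03 ± 0.12 with an unadjusted p of 0.000644 and an adjusted p of 0.14 (limma). Hk2, Pdhb and Pdha1, higher, and Pgd, lower, also had an unadjusted p under 0.05 in it. Neither fit called any gene, so no effect on Pdk4 is read from these unadjusted p-values. Pgd read 1201, 1291 and 1042 in FoxO-deficient LSK cells, against 1688, 2273 and 1729 in wild-type LSK cells (log2 change -0.68 ± 0.18, limma adjusted p = 0.204). All 4 of its probe sets had a negative log2 change, but the dimmest only by -0.03 ± 0.20, with overlapping groups. Without array 2 the wild-type LSK mean of that dimmest probe set was 80.9, against 84.4 in FoxO-deficient LSK cells. Ldhb read 319.9, 369.7 and 381 in FoxO-deficient and 386, 1356 and 517 in wild-type LSK cells (log2 change -0.86 ± 0.38, and -0.32 ± 0.17 without array 2). Pdha1 read 893, 826 and 861 in FoxO-deficient and 616, 604 and 712 in wild-type LSK cells (log2 change 0.42 ± 0.14, limma adjusted p = 0.332). None of these differences passed the adjusted threshold.

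Markers differed between the same LSK arrays. The basophil and mast cell sum was 294 to 341 in FoxO-deficient and 85.0 to 192 in wild-type LSK cells, with Mcpt8 of the 6 called higher. The late neutrophil sum was 8524 to 8766 in FoxO-deficient and 5988 to 8211 in wild-type LSK cells, with Camp of the 8 called higher. The stem cell sum was 6676 to 7136 in FoxO-deficient and 7142 to 7428 in wild-type LSK cells, with Tek of the 10 called lower. Of the erythroid and monocyte markers, Car1 and Ccr2 were called lower. The part of these shifts in the LSK values was not tested.

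**Figure D5:**
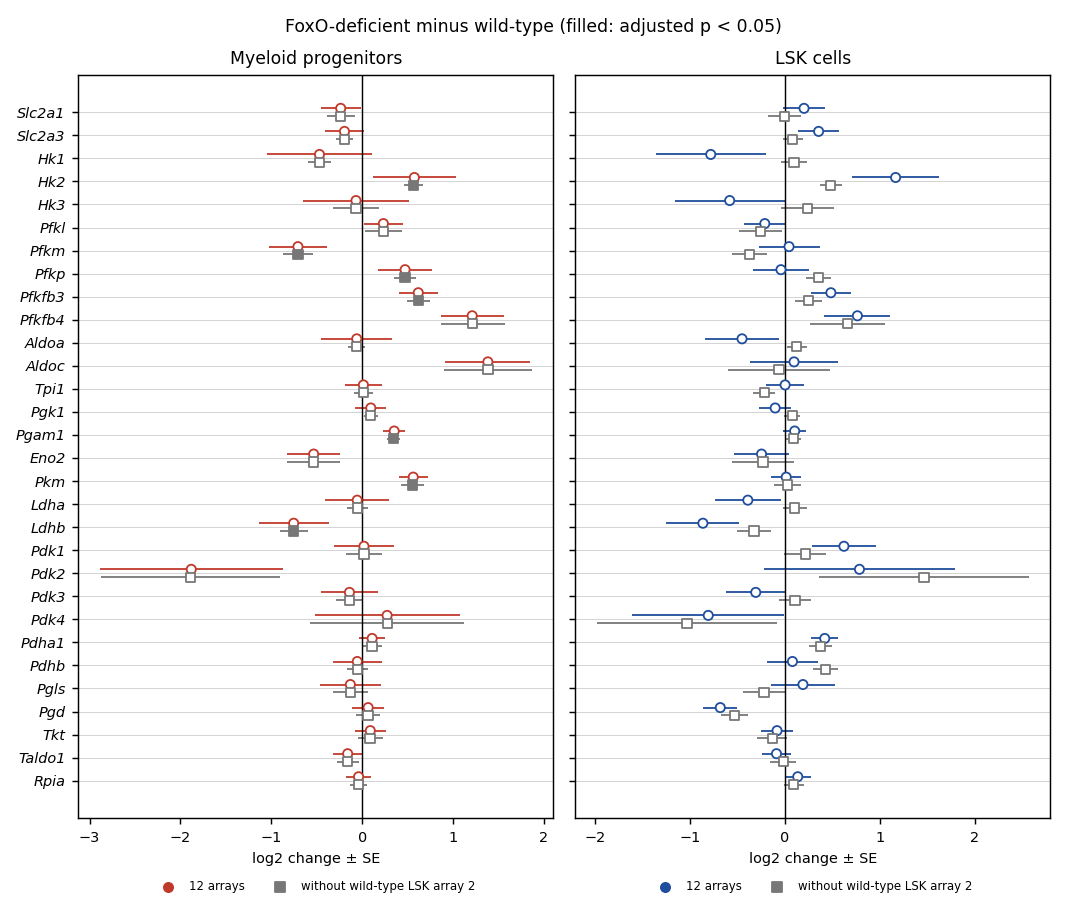
Log2 change ± SE of FoxO-deficient minus wild-type cells for the 30 genes tested, in myeloid progenitors (left) and LSK cells (right); filled symbols passed an adjusted p of 0.05, circles are the fit to 12 arrays and grey squares the fit without wild-type LSK array 2. The 7 filled squares in myeloid progenitors are Hk2, Pfkm, Pfkp, Pfkfb3, Pgam1, Pkm and Ldhb, and no symbol is filled in LSK cells.

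Across the 2 cell types, whose genotype comparisons share no array, the groups did not overlap in the same direction for 3 of 30 genes (10%), against 4.42% of all genes. Pfkfb3 and Hk2 were higher in FoxO-deficient cells, against 2.68% of all genes, and Ldhb was lower, against 1.74%. Pfkfb3 was 167, 176 and 195 in FoxO-deficient and 139, 92.2 and 163 in wild-type LSK cells, the value of 92.2 being array 2, beside the higher level in FoxO-deficient myeloid progenitors given above. In LSK cells its lowest FoxO-deficient value exceeded the highest wild-type value by a small margin. The margin of Ldhb was likewise small there, with 381 as its highest FoxO-deficient and 386 as its lowest wild-type value. On a dimmer Ldhb probe set the LSK groups overlapped, with 209 on a FoxO-deficient and 197 on a wild-type array. The test of the difference between the 2 FoxO effects called 0 of 30 genes (limma, against 0.859% of all genes), with 2 at an unadjusted p under 0.05, against 10.6% of all genes. These were Pgd, at 0.74 ± 0.25, and Pkm, at 0.55 ± 0.22 (limma adjusted p = 0.299 and 0.411). Without array 2 the difference was likewise called for 0 of 30 genes (limma, against 3.47% of all genes), with 4 at an unadjusted p under 0.05 (Hk1, Pkm, Pdhb and Pgd), against 17.9% of all genes.

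Around the listed genes, 40 of 50 other genes of glucose metabolism were tested. Between FoxO-deficient and wild-type myeloid progenitors 1 of the 40 was called, against 1.84% of all genes, namely Pdp1, the phosphatase that switches pyruvate dehydrogenase back on and so opposes the Pdk kinases. It read 53.1, 64.5 and 57.2 in FoxO-deficient and 24.9, 34.7 and 33.9 in wild-type myeloid progenitors (log2 change 0.91 ± 0.18, limma adjusted p = 0.0325). These groups did not overlap, and a second Pdp1 probe set had the same sign, with a log2 change of 0.41. In LSK cells 0 of the 40 were called between genotypes (limma, against 0.269% of all genes), with 6 at an unadjusted p under 0.05, against 11.5% of all genes. Between the cell types 6 of the 40 were called in FoxO-deficient cells, against 19.6% of all genes, all higher in myeloid progenitors (Pklr, Pdhx, Dld, Tigar, Rpe and Rbks). In wild-type cells 11 were called, against 21.4% of all genes, 7 higher (Adpgk, Pklr, Pdhx, Dlat, Dld, Rbks and Pgm2) and 4 lower (Slc2a9, Ldhd, Pdp1 and Pgm1). A second, dimmer Pgm1 probe set went the opposite way there, with a log2 change of 0.84 against -0.54.

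Among those, Pklr, the pyruvate kinase of liver and red cells, averaged 857 in FoxO-deficient and 1715 in wild-type myeloid progenitors, and 27.7 in FoxO-deficient and 62.8 in wild-type LSK cells. Its log2 change between cell types was 4.95 ± 0.43 in FoxO-deficient and 4.77 ± 0.43 in wild-type cells (limma adjusted p = 4.55e-05 and 7.62e-05), alongside the rise of the erythroid markers, whose part was not tested. Rbks, the ribokinase that feeds ribose into the pentose phosphate pathway, averaged 153 in FoxO-deficient and 185 in wild-type myeloid progenitors, and 42.6 in FoxO-deficient and 50.4 in wild-type LSK cells (log2 change 1.84 ± 0.17 and 1.88 ± 0.17, limma adjusted p = 5.72e-05 and 6.83e-05). Both Rbks probe sets rose in both genotypes. Of the pyruvate dehydrogenase complex, Dld (the E3 subunit) and Pdhx (its binding protein) rose in both genotypes. Dld averaged 148 in FoxO-deficient and 136 in wild-type myeloid progenitors, and 76.7 in FoxO-deficient and 59.2 in wild-type LSK cells (log2 change 0.95 ± 0.18 and 1.20 ± 0.18, limma adjusted p = 0.00476 and 0.00128). Tigar, a phosphatase that lowers fructose 2,6-bisphosphate, averaged 348 in FoxO-deficient and 148 in wild-type myeloid progenitors, and 75.5 in FoxO-deficient and 70.9 in wild-type LSK cells. Its change between cell types was 2.20 ± 0.37 in FoxO-deficient cells (limma adjusted p = 0.00233) and 1.06 ± 0.37 in wild-type cells (limma adjusted p = 0.067). The difference of these changes was 1.14 ± 0.52 and was not called (limma adjusted p = 0.478). That test called 0 of the 40 genes with 12 arrays, against 0.859% of all genes, and 1 without array 2, against 3.47%. Without array 2 the called counts among the 40 were 13 higher and 0 lower in FoxO-deficient cells, against 38.2% of all genes, and 13 higher and 5 lower in wild-type cells, against 35%. Between genotypes in myeloid progenitors they were 4 higher and 1 lower, against 8.9% of all genes. Among the 4 were Pdp1, Pgm1 and Tigar, with log2 changes of 0.91, 0.68 and 1.23 (limma adjusted p = 0.0089, 0.00858 and 0.0338). With 12 arrays Tigar was not called there (log2 change 1.23 ± 0.37, limma adjusted p = 0.156), and its other probe sets changed by 1.06 and 1.37.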

How the data were processed

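The authors deposited an intensity, on a linear scale, for each probe set of each array. How probes were summarised into these values is not given here in the labels, headers or notes used. Per the labels' protocols, RNA was amplified and biotin-labelled with the NuGEN Ovation system in triplicate. At most 1.55% of probe sets had equal values on any pair of arrays.

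From the deposited intensities, log2(intensity + 0.6) was computed, with an offset equal to the 10th percentile of the whole table, followed by quantile normalization. Probe sets above the 40th percentile of their array on at least 3 arrays were kept (31779 of 45101). Genes were named from probe sets with 1 symbol in the platform annotation, updated through a RefSeq gene table of GRCm38.p6, and 64 manufacturer's controls were left out. The background limit of an array was the highest of 27 bacterial control probe sets (5.14 to 13.0). Where a dim group did not exceed it on any array, the fold is given as "at least". It sets the bright group's mean against the limits, or the gene's own values where higher. A model with 1 mean per group was fitted with limma 3.58.1 in R 4.3.3 (lmFit, eBayes, 8 residual degrees of freedom, two-sided), and was checked on simulated data. The number of arrays limits the precision.

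The 34 genes and all lists of genes and markers were chosen with earlier results of these data known. Values of every array are given for genes called in any of the 5 contrasts and for the Pdk genes, Slc2a1, Hk2, Gapdh and Ldha, and other genes are given by ranges and counts unless singled out. The alternatives were another offset (1 or 32), median scaling, a stricter filter or none, only the groups compared, array weights, single probe sets and leaving out each array.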

Additional observations from a re-analysis of the deposited data

How the results depend on the processing

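No paired analysis was possible because no replicate number is shared between groups. The labels give no batch. The 3 arrays a group limit the precision, and genes near background (Aldoc, Eno2 and Pdk4 in myeloid progenitors, Pdk2, Pfkfb4) have changes that depend on the offset. Of the 9 genes called in both cell type comparisons, Eno2, Pdk4, Aldoc and Ldhb were called under all 20 alternatives in both. No change called with 12 arrays turned its sign in any alternative. Among changes not called, leaving out array 2 turned the sign of 12 of 30 genes between genotypes in LSK cells (Hk1, Aldoa and Ldha among them), of 8 for the difference of the effects and of 5 between wild-type cell types, of which Hk1 alone was then called. It moved the listed genes' median difference of the effects to -0.14, against 0.15 with 12 arrays. The causes of the moves below were not tested, except that fewer arrays or genes enter some fits.

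Leaving out 1 array in turn, the listed genes called numbered 0 to 7 between genotypes in myeloid progenitors, 0 to 0 in LSK cells and 0 to 0 for the difference of these effects. They numbered 8 to 18 between wild-type cell types and 9 to 18 between FoxO-deficient cell types. Over all genes the ranges were 130 to 1196, 9 to 128, 58 to 467, 2026 to 4711 and 1890 to 5136 in the same order. Each highest count, where the counts differ, came without wild-type LSK array 2. The lowest among the listed genes came without wild-type myeloid progenitor array 7 and without FoxO-deficient LSK array 5.

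Between genotypes in myeloid progenitors the count of listed genes was 0, against 1 with an offset of 32 and 5 with array weights. Over all genes it was 253, against 644 with only the groups compared, 504 with an offset of 32, 407 with the 60th percentile filter, 1230 with array weights and 464 of the single probe sets. Between genotypes in LSK cells it was 37 over all genes, against 0 with only the groups compared (also without array 2), 169 with an offset of 32, 22 with median scaling, 93 with the 60th percentile filter, 16 with no filter and 148 with array weights. For the difference of the effects it was 118, against 212 with an offset of 32, 72 with median scaling, 185 with the 60th percentile filter, 75 with no filter, 440 with array weights and 187 of the single probe sets.

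Between wild-type cell types the listed genes called were 11, against 4 with only the groups compared (Eno2, Pdk4, Aldoc and Ldhb) and 17 with array weights. Over all genes they were 2942, against 1100 with only the groups compared and 4619 of the single probe sets. Between FoxO-deficient cell types they were 2695 over all genes, against 4743 with only the groups compared, 5444 with array weights and 4655 of the single probe sets.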
